A study of Mus musculus with 12 samples.

Results

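The Cyp3a genes of mouse liver were followed as a family in RNA sequencing of whole liver. The members were the rows with the symbols Cyp3a11, Cyp3a13, Cyp3a16, Cyp3a25, Cyp3a41a, Cyp3a41b and Cyp3a44, which are 7 of 18560 genes in the table. The mice were 12 months old and came in 4 groups of 3 libraries: OXR1A-/- males, wild-type males, OXR1A-/- females and wild-type females. The labels give neither the strain, a treatment nor the way the deficiency was made. Nothing in them says that each sample is a mouse of its own, so the p-values cover the spread between samples alone, and part of that spread may be technical. OXR1A is one product of Oxr1, whose TLDc family protects cells against oxidative damage, and the study asked how the liver transcriptome differs without it. The levels are FPKM, the fragments of a gene scaled to its length and to the fragments mapped in the library, so levels of different genes can be set side by side. Steps in the low values place the libraries at about 20400000 to 29900000 fragments.

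CYP3A enzymes are haem proteins of the endoplasmic reticulum that oxidise drugs, steroids and bile acids, with electrons passed on by cytochrome P450 reductase. Their genes are known targets of the pregnane X receptor (PXR) and the constitutive androstane receptor (CAR), which bind DNA with RXR, and they depend on the hepatocyte factor HNF4A. In mouse liver some members are made mainly by adult females, a pattern known to be set by the sex-specific timing of growth hormone secretion acting through STAT5B.

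All 7 genes lie on chromosome 5 of GRCm38, on the minus strand in the RefSeq annotation. Cyp3a16, Cyp3a41b, Cyp3a41a, Cyp3a44, Cyp3a11 and Cyp3a25 follow each other in that order over 573 kb (chr5:145436309-146009644), and Cyp3a13 stands apart from them by 7.51 Mb. The RefSeq promoters of the female-biased genes and of Cyp3a11 are shown because their differences by sex run in opposite directions while their sequences are close. Each line gives the 250 bases before 1 annotated start of the gene, read on the strand of the gene. This start is not always the outermost. The windows of Cyp3a16 and Cyp3a44 reach into genes annotated to end at 145469740 and 145805891. That of Cyp3a13, searched but not printed, lies within its gene (window to 137921869, gene to 137925610). Capitals mark the HNF4 core CAAAGTCCA and TGAACT, the reverse complement of AGTTCA, a form of the half-site known for PXR and CAR.
Cyp3a41a (chr5:145720137-145720386, minus strand): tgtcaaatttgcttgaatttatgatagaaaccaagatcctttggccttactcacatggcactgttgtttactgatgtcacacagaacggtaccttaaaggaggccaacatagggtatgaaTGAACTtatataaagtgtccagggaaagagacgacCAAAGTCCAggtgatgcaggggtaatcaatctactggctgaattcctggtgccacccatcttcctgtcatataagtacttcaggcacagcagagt
Cyp3a16 (chr5:145469724-145469973, minus strand): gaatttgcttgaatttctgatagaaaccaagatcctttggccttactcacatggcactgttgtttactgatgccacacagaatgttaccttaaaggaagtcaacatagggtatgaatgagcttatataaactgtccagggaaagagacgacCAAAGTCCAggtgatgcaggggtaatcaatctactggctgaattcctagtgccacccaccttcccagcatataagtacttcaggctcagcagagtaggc
Cyp3a44 (chr5:145805875-145806124, minus strand): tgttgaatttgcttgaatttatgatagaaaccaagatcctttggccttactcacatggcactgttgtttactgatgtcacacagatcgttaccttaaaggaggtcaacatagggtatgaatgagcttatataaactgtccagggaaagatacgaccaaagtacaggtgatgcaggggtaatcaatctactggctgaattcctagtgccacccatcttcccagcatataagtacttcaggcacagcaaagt
Cyp3a11 (chr5:145879855-145880104, minus strand): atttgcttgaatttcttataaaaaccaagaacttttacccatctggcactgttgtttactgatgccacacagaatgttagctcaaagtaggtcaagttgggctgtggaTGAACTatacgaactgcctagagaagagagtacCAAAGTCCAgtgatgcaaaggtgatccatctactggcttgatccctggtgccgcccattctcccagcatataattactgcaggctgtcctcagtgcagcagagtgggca

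The promoter of Cyp3a41b differed from that of Cyp3a41a at 1 of 250 bases and is not printed. Over these windows Cyp3a41a was 94.4% identical to Cyp3a44 and 80.9% identical to Cyp3a11, and Cyp3a16 was 95.9% identical to Cyp3a44. The HNF4 core stood in 4 of the 7 promoters (Cyp3a11, Cyp3a16, Cyp3a41a and Cyp3a41b), searched on both strands, against 0.381% of 27025 promoters of the same length. These promoters are alike over the whole window (Cyp3a16 and Cyp3a41a 93.9%, Cyp3a11 and Cyp3a16 83.3% identical). Matches that they share are therefore not independent of each other. In Cyp3a44 the closest match to the core carried the single substitution C7A, counted from 1 at the 5′ end of the core. It began 95 bases before the start, the position at which Cyp3a41a holds the core. The half-site in the form AGTTCA was in 3 of the 7 (Cyp3a11, Cyp3a41a and Cyp3a41b) and in 11.9% of all promoters. The form AGGTCA was neither searched nor marked, and it stands in the printed promoters of Cyp3a11 and Cyp3a44. The palindrome known for STAT5, TTCNNNGAA, was in 0 of the 7 and in 7.18% of all promoters, and the direct repeat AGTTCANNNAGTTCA was in none of the 27025. These are matches of letters in short windows, and distal enhancers lie outside them.

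Cyp3a41a and Cyp3a41b are near-identical copies, and their separate values are uncertain. Their mRNAs, taken from GENCODE transcripts matched to RefSeq numbers, differed at 2 of 2060 aligned bases. Of all stretches of 50 bases, 1.39% in Cyp3a41a and 6.5% in Cyp3a41b occurred in no other member. The same share was 81.8% for Cyp3a44, 85.3% for Cyp3a11 and 89.5% for Cyp3a16, so a smaller part of their reads could be split between members. Cyp3a13 and Cyp3a25 shared no such stretch with another member. Cyp3a57, Cyp3a59 and the Cyp3a pseudogenes, which are no members, were not compared. How reads that fit several copies were counted is not given in the sources used here.

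The labelled sex and tissue were checked first. Xist, the RNA of the inactive X chromosome, was 0.82 FPKM in OXR1A-/- male 3 and 0.04 to 0.08 in the other males, while females had 19.2 to 45.9. Eif2s3y, a Y-linked gene, was 23.1 to 35.6 FPKM in males, and among females it was 0.85 in OXR1A-/- female 1, 1.89 in wild-type female 1 and at most 0.10 in the rest. With these 3 libraries left out, 0 Cyp3a genes were called between genotypes in either sex, 5 between wild-type sexes and 2 between OXR1A-/- sexes. Over all tested genes the calls between OXR1A-/- sexes then were 59 higher and 64 lower in males, against 192 and 231 with all 12 libraries. Albumin, a defining product of hepatocytes, was at 31720 to 35762 FPKM in OXR1A-/- males and at 39817 to 44456 in wild-type males. Oxr1 was at 23.4 ± 1.48 FPKM in OXR1A-/- males and 17.9 ± 5.61 in wild-type males, and at 20.2 ± 0.642 in OXR1A-/- females and 18.5 ± 1.85 in wild-type females (SD, n = 3 each). Its row covers all isoforms and does not check the loss of OXR1A.

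All 7 members passed the filter on low values (at least 1 FPKM in at least 3 of the 12 libraries) and were tested with limma on log2(FPKM + 1) among 11514 genes, with Benjamini-Hochberg adjustment over all of them. A gene was called at an adjusted p under 0.05. Cyp3a16, Cyp3a41a, Cyp3a41b and Cyp3a44 passed the filter through the female libraries, where they are high.

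Between OXR1A-/- and wild type, 0 of 7 Cyp3a genes were called by limma in males, where 2.55% of all tested genes were, and 0 of 7 were called in females, where 0.0174% were. At an unadjusted p under 0.05 the counts were 0 of 7 in males, against 23.9% of all genes, and 1 of 7 in females (Cyp3a11), against 6.13%. No member had groups that did not overlap in either comparison, against 23.7% of all genes in males and 17.6% in females. In males versus females, the family divided: in wild-type livers Cyp3a11 was higher in males, 4 genes were lower in males, and Cyp3a13 and Cyp3a25 gave no call.

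**Figure D1:**
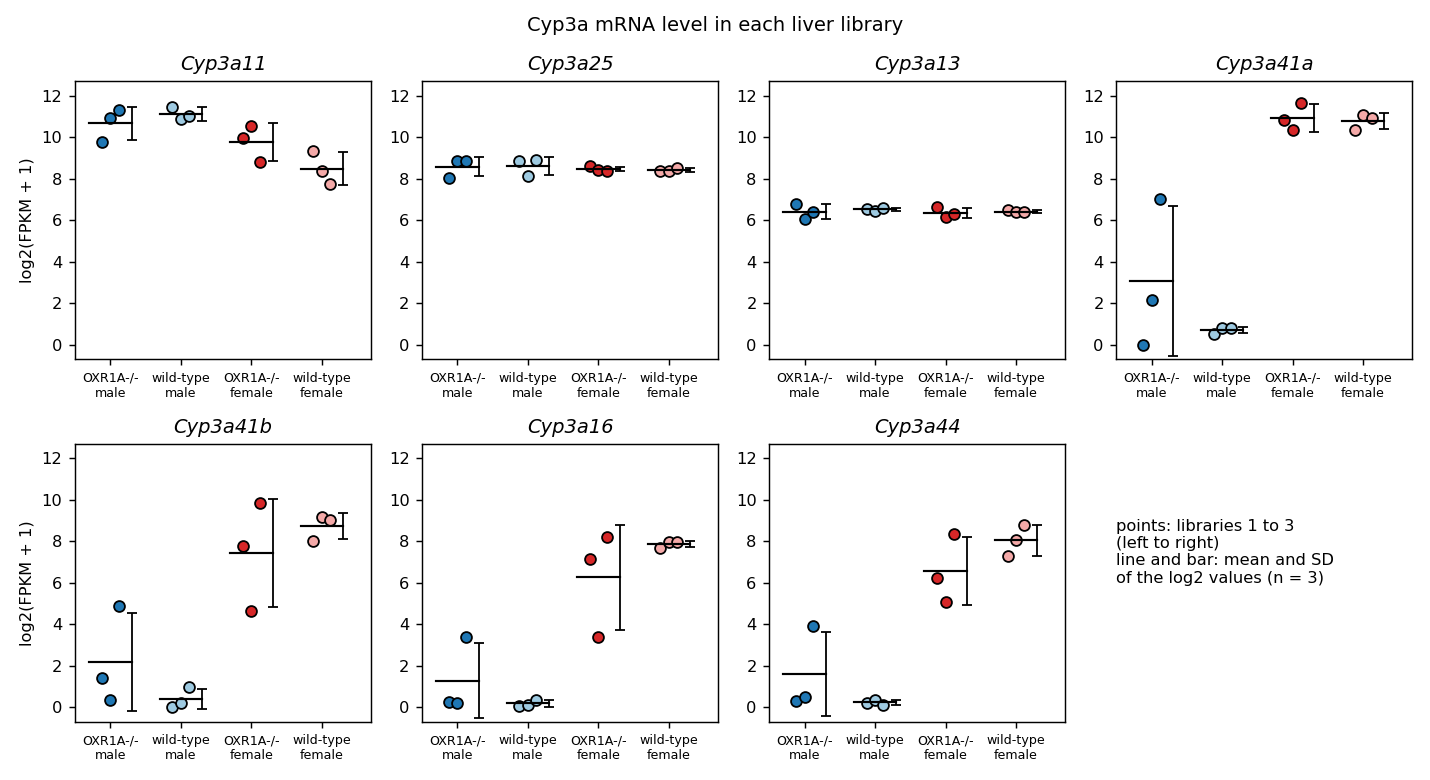
Level of each Cyp3a gene in the 12 liver libraries, as log2(FPKM + 1), for OXR1A-/- males, wild-type males, OXR1A-/- females and wild-type females, with the mean and SD of 3 libraries. Cyp3a41a, Cyp3a41b, Cyp3a16 and Cyp3a44 are at 0 to 3.39 FPKM in all males but OXR1A-/- male 3, while Cyp3a13 and Cyp3a25 lie in a narrow band in all groups.

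Cyp3a11, the main PXR-inducible drug-metabolising member and the one usually set beside human CYP3A4, had 877, 1911 and 2533 FPKM in OXR1A-/- males and 2822, 1845 and 2080 FPKM in wild-type males. It had 989, 1499 and 438 FPKM in OXR1A-/- females and 632, 329 and 210 FPKM in wild-type females. Among males the lowest library was OXR1A-/- male 1, and the other OXR1A-/- males lay within the wild-type range. Among females 2 of the 3 OXR1A-/- libraries lay above all wild-type libraries, and OXR1A-/- female 3 lay among them.

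The log2 difference of Cyp3a11 between OXR1A-/- and wild type was -0.45 (SE 0.51, limma adjusted p = 0.593) in males and 1.30 (SE 0.51, limma adjusted p = 0.780) in females. The difference between these effects, males minus females, was -1.75 (SE 0.72, limma adjusted p = 0.544), which is not called. In OXR1A-/- female 1 and wild-type female 1, the libraries with traces of Y-linked RNA, Eif2s3y stood at 2.69% and 5.97% of its mean in wild-type males, and Cyp3a11 at 44% and 28.1% of its own. The part of these traces in the female values was not tested. With OXR1A-/- male 3, OXR1A-/- female 1 and wild-type female 1 left out, the difference between the effects was -2.39 (limma adjusted p = 0.436).

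Between the sexes, Cyp3a11 averaged 2249 ± 510 FPKM in wild-type males and 390.3 ± 217 FPKM in wild-type females (SD, n = 3 each). Males were 5.76-fold higher by mean FPKM, without overlap, with a log2 difference of 2.65 (SE 0.51, limma adjusted p = 0.00703). In OXR1A-/- livers the means were 1773 ± 836 FPKM in males and 975.4 ± 531 FPKM in females, the groups overlapped, and the log2 difference was 0.90 (SE 0.51, limma adjusted p = 0.449).

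Cyp3a41a and Cyp3a41b are the female-predominant members with the highest levels. Cyp3a41a was listed at 0, 3.39 and 129 FPKM in OXR1A-/- males and at 0.44, 0.72 and 0.76 FPKM in wild-type males. It had 1804, 1288 and 3208 FPKM in OXR1A-/- females and 1309, 2120 and 1955 FPKM in wild-type females. In females it was among the most abundant transcripts of the liver, at rank 36 of all genes by mean FPKM in OXR1A-/- females and rank 37 in wild-type females.

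Cyp3a41b had 1.62, 0.27 and 28.0 FPKM in OXR1A-/- males and 0, 0.17 and 0.95 FPKM in wild-type males. It had 217, 24.1 and 924 FPKM in OXR1A-/- females and 257, 568 and 527 FPKM in wild-type females. Its highest male value, in OXR1A-/- male 3, lay above its lowest female value, in OXR1A-/- female 2.

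Cyp3a16, known as a form expressed in fetal liver, had 0.18, 0.16 and 9.42 FPKM in OXR1A-/- males and 0.05, 0.09 and 0.29 FPKM in wild-type males. It had 142, 9.61 and 292 FPKM in OXR1A-/- females and 203, 252 and 245 FPKM in wild-type females. The wild-type female libraries lay within 1.24-fold of each other, and the OXR1A-/- female libraries were spread over 30.4-fold.

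Cyp3a44, another female-predominant form, had 0.24, 0.43 and 14.2 FPKM in OXR1A-/- males and 0.15, 0.29 and 0.09 FPKM in wild-type males. It had 74.8, 33.0 and 322 FPKM in OXR1A-/- females and 155, 268 and 443 FPKM in wild-type females. Both OXR1A-/- female 1 and female 2 lay below all wild-type females.

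In males, these 4 genes were listed at 0 to 3.39 FPKM in OXR1A-/- males 1 and 2, and OXR1A-/- male 3 held the highest value of all 6 males for each. The log2 difference between OXR1A-/- and wild-type males was 2.35 for Cyp3a41a (SE 1.25, limma adjusted p = 0.269), 1.80 for Cyp3a41b (SE 1.23, limma adjusted p = 0.380), 1.35 for Cyp3a44 (SE 0.93, limma adjusted p = 0.382) and 1.09 for Cyp3a16 (SE 1.06, limma adjusted p = 0.531). None was called. Without OXR1A-/- male 3 the same differences were 0.36, 0.47, 0.18 and 0.04. That library is the male with a trace of Xist, at 2.25% of the wild-type female mean. Its levels of Cyp3a41a, Cyp3a41b, Cyp3a44 and Cyp3a16 stood at 7.20%, 6.22%, 4.91% and 4.04% of their own wild-type female means, and the part of the trace in these values was not tested.

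In females, the log2 difference between OXR1A-/- and wild type was 0.15 for Cyp3a41a (SE 1.25, limma adjusted p = 0.991), -1.31 for Cyp3a41b (SE 1.23, limma adjusted p = 0.904), -1.61 for Cyp3a16 (SE 1.06, limma adjusted p = 0.870) and -1.49 for Cyp3a44 (SE 0.93, limma adjusted p = 0.864). None was called. The SE rests on the spread within all 4 groups together, which includes the spread of the OXR1A-/- males. OXR1A-/- female 2 was the lowest female library for each of the 4 genes. Without it the differences were 0.45, 0.08, -0.19 and -0.76, so that of Cyp3a41b changed sign.

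OXR1A-/- female 2 was low by different amounts. It held 71.8% of the wild-type female mean for Cyp3a41a, 11.4% for Cyp3a44, 5.35% for Cyp3a41b and 4.12% for Cyp3a16. For each 100 FPKM of Cyp3a41a it had 1.87 FPKM of Cyp3a41b, against 12.1 and 28.8 in the other OXR1A-/- females and 19.6, 26.8 and 26.9 in the wild-type females. It had 0.746 FPKM of Cyp3a16 for each 100 of Cyp3a41a, against 7.89 and 9.10 in the other OXR1A-/- females and 11.9 to 15.5 in wild-type females. It had 2.56 FPKM of Cyp3a44, against 4.15 and 10.05 in the other OXR1A-/- females and 11.9 to 22.7 in wild-type females. All these ratios are taken to Cyp3a41a, whose value is uncertain because of its near-identical copy Cyp3a41b. Among the members, Cyp3a16 and Cyp3a44 have mostly sequence of their own, while Cyp3a41b does not. This library was described after its values were seen.

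**Figure D2:**
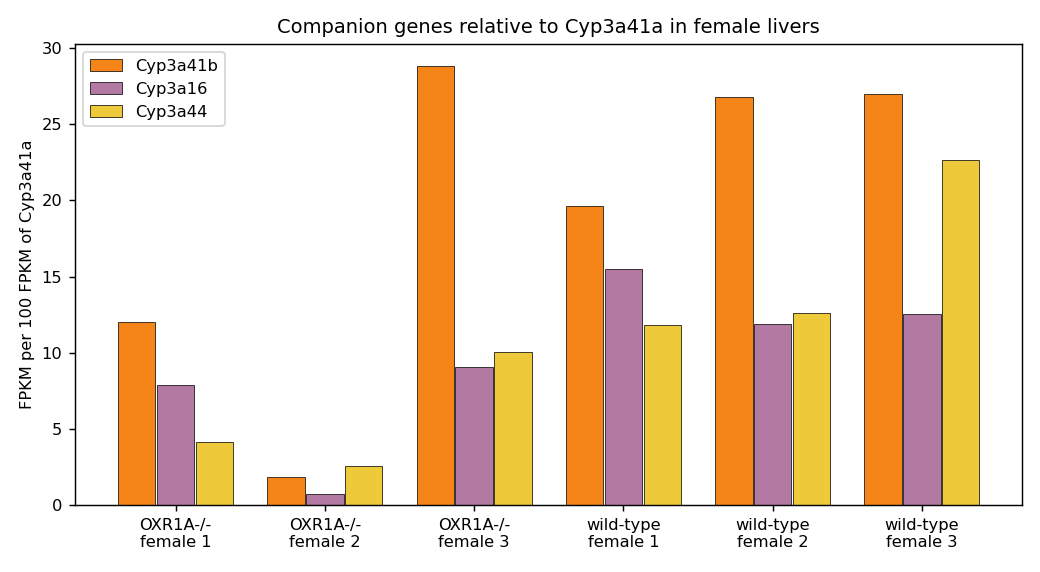
FPKM of Cyp3a41b, Cyp3a16 and Cyp3a44 for each 100 FPKM of Cyp3a41a in the 3 OXR1A-/- and the 3 wild-type female libraries. The bars of OXR1A-/- female 2 reach 1.87, 0.746 and 2.56, below those of every other female library.

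Cyp3a25, a member with similar levels in the sexes here, had 263, 459 and 457 FPKM in OXR1A-/- males and 464, 277 and 472 FPKM in wild-type males. It had 384, 341 and 332 FPKM in OXR1A-/- females and 333, 324 and 368 FPKM in wild-type females. Cyp3a13, the member outside the cluster, had 109, 65.3 and 81.4 FPKM in OXR1A-/- males and 92.4, 84.4 and 95.0 FPKM in wild-type males, and 97.7, 69.9 and 77.3 FPKM in OXR1A-/- females and 87.5, 81.3 and 83.0 FPKM in wild-type females. All groups of both genes overlapped.

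No comparison called either gene. Between OXR1A-/- and wild type the log2 differences were -0.04 and 0.04 for Cyp3a25 in males and in females (SE 0.24 each), and -0.12 and -0.05 for Cyp3a13 (SE 0.17 each). Cyp3a13 had its widest spread in OXR1A-/- males, where the highest library was 1.66 times the lowest.

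**Figure D3:**
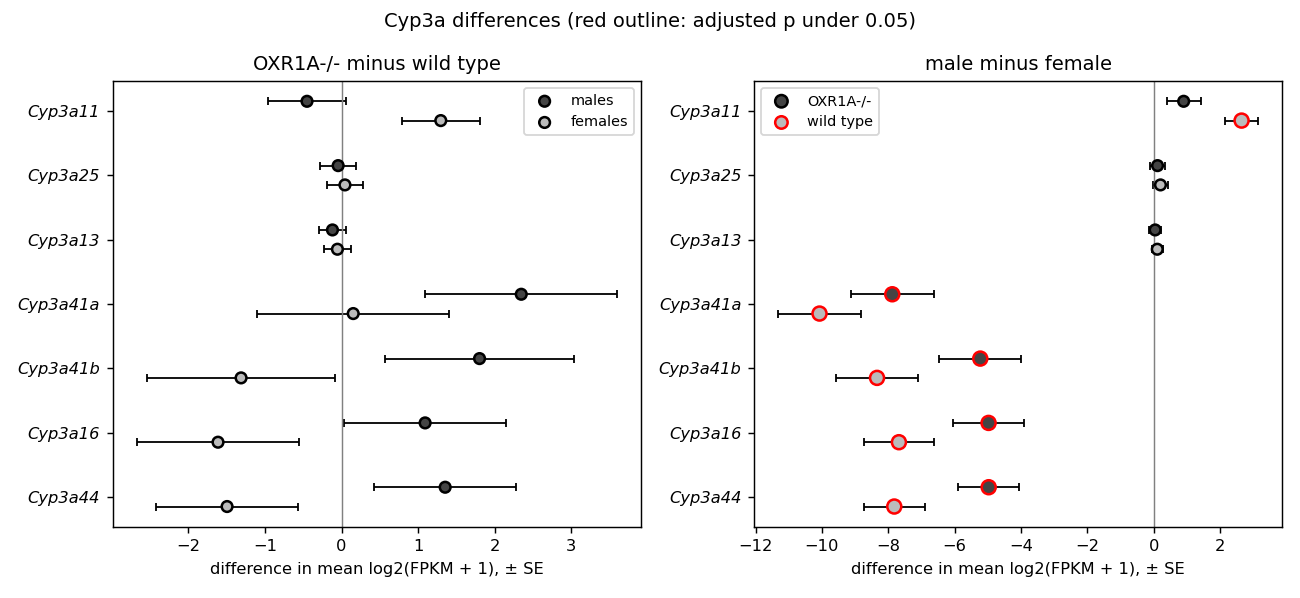
Log2 differences of the 7 genes with their SE (limma, 3 libraries a group), for OXR1A-/- minus wild type on the left and male minus female on the right. Adjusted p under 0.05 is marked by a red outline, which 5 genes have between wild-type sexes, 4 between OXR1A-/- sexes and none between genotypes.

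Between wild-type sexes, 5 of the 7 genes were called, 1 higher and 4 lower in males, against 13.4% of all tested genes (2.31% higher and 11.1% lower). The same 5 had no overlap, against 40.2% of all genes. The members' median log2 difference was -7.68, beside -0.21 over all tested genes. Cyp3a41a averaged 0.64 ± 0.174 FPKM in wild-type males and 1795 ± 429 FPKM in wild-type females (SD, n = 3 each; log2 difference -10.07, SE 1.25, limma adjusted p = 0.00046). The log2 difference was -8.34 for Cyp3a41b (SE 1.23, limma adjusted p = 0.00155), -7.82 for Cyp3a44 (SE 0.93, limma adjusted p = 0.000335) and -7.68 for Cyp3a16 (SE 1.06, limma adjusted p = 0.000941). An offset of 1 understates differences of genes this low in males.

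Between OXR1A-/- sexes the same 4 genes were lower in males and 0 were higher, against 3.67% of all tested genes called (1.67% higher and 2.01% lower). The log2 difference was -7.88 for Cyp3a41a (SE 1.25, limma adjusted p = 0.00444), -5.23 for Cyp3a41b (SE 1.23, limma adjusted p = 0.0373), -4.98 for Cyp3a16 (SE 1.06, limma adjusted p = 0.0239) and -4.97 for Cyp3a44 (SE 0.93, limma adjusted p = 0.0121). In 3 of 7 genes the groups did not overlap, against 22.1% of all genes. The 4 calls depended on single libraries: 1 was left without OXR1A-/- male 1, and 2 without OXR1A-/- male 2, OXR1A-/- female 1 or OXR1A-/- female 3. Calls over all genes fell in the same fits, from 192 higher and 231 lower in males. They were 116 and 124 without OXR1A-/- male 1 and 145 and 218 without OXR1A-/- male 2. Without OXR1A-/- female 1 they were 96 and 105, and without OXR1A-/- female 3 they were 113 and 137. Cyp3a41b was called in 4 of 12 fits with 1 library left out, and was lost also without wild-type male 3 or any single wild-type female. Cyp3a41a was called in all 12, and no Cyp3a gene was called with only the OXR1A-/- libraries in the fit. Over all tested genes, that fit called 98 higher and 118 lower in males.

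The difference between the male and the female effect of genotype is the same quantity as the difference between the sex differences of the genotypes. It was 2.19 for Cyp3a41a (SE 1.77), 3.11 for Cyp3a41b (SE 1.74), 2.70 for Cyp3a16 (SE 1.5) and 2.85 for Cyp3a44 (SE 1.31), with limma adjusted p of 0.575, 0.544, 0.544 and 0.544. By limma 0 of 7 genes were called, against 0.0261% of all genes, and 1 of 7 (Cyp3a11) had an unadjusted p under 0.05, against 9.03% of all genes. The sex difference is therefore not shown to differ between genotypes for any member.

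Summed over the family, Cyp3a mRNA stood at 1251 to 3253 FPKM in OXR1A-/- males and 2207 to 3380 in wild-type males, and at 3264 to 5595 in OXR1A-/- females and 2976 to 3942 in wild-type females. Cyp3a11 made up 70.1% to 78.3% of this sum in OXR1A-/- males and 78.5% to 83.6% in wild-type males. In females its share was 26.7%, 45.9% and 7.83% in OXR1A-/- libraries and 21.2%, 8.35% and 5.49% in wild-type libraries. Cyp3a41a made up 39.5% to 57.3% of the sum in OXR1A-/- females and 44% to 53.8% in wild-type females. In OXR1A-/- female 2 Cyp3a11 and Cyp3a41a were close to each other, while in each of the other females Cyp3a41a was the higher. In bulk liver, fewer cells of a type and less RNA per cell cannot be told apart.

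**Figure D4:**
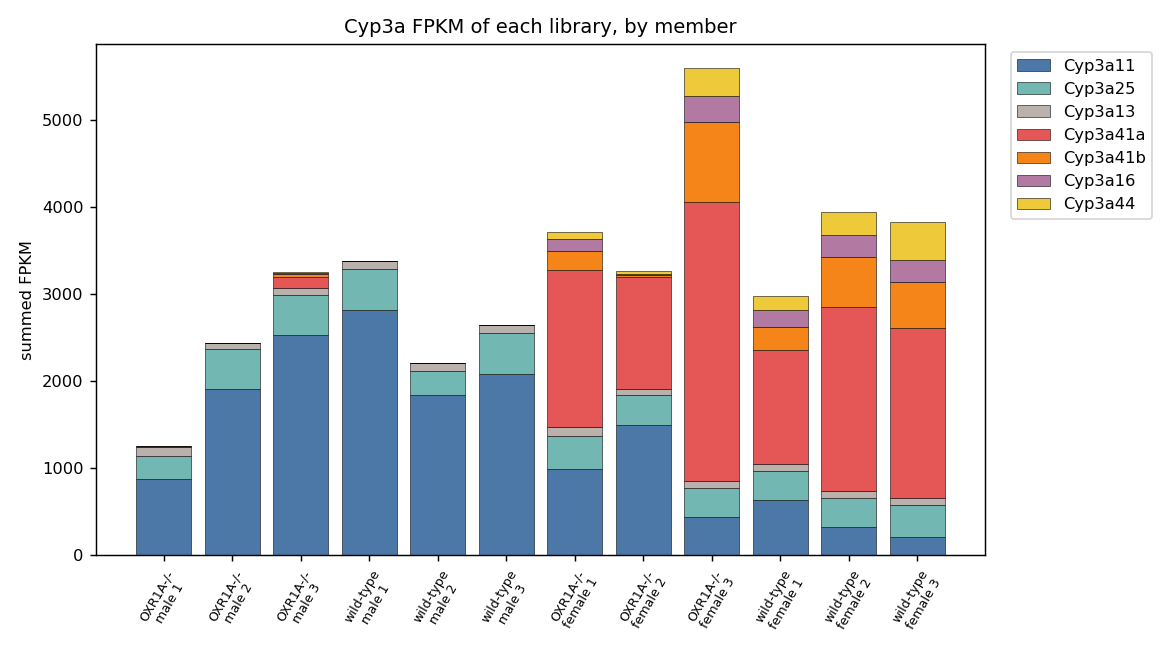
Summed FPKM of the 7 Cyp3a genes in each of the 12 libraries, divided by gene. Cyp3a11 is the main part in all males, Cyp3a41a in all females but OXR1A-/- female 2, where Cyp3a11 holds 45.9% and Cyp3a41a 39.5%.

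Among the annotated Cyp3a genes along the chromosome, the 4 lower in males follow each other with only Cyp3a pseudogenes between some of them. Genes of other families within the cluster were not listed. Cyp3a11, with the opposite sex difference, follows Cyp3a44. Cyp3a59, which is no member and lies beyond Cyp3a25, was at 25.5 ± 7.07 FPKM in wild-type males and 60.2 ± 12.5 FPKM in wild-type females (log2 difference -1.23, SE 0.33, limma adjusted p = 0.0310), and was not called between genotypes. With median-ratio scaling its adjusted p between wild-type sexes was 0.0681. Cyp3a57, which is no member and lies before Cyp3a16, was at 0 to 0.59 FPKM in the 12 libraries and was not tested. Beyond the first and the last annotated Cyp3a gene or pseudogene of the cluster, the nearest genes with a row are Zscan25 and Rnf6. Zscan25 lies 52.9 kb before Cyp3a57, and Rnf6 lies 11.2 kb after the last Cyp3a pseudogene, Cyp3a60-ps. Zscan25 was at 1.57 ± 0.559 FPKM in wild-type males and 3.24 ± 0.427 in wild-type females (log2 difference -0.74, limma adjusted p = 0.0159), a call lost with median-ratio scaling (0.0523) and quantile normalization (0.0891). Rnf6 was called in no comparison.

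**Figure D5:**
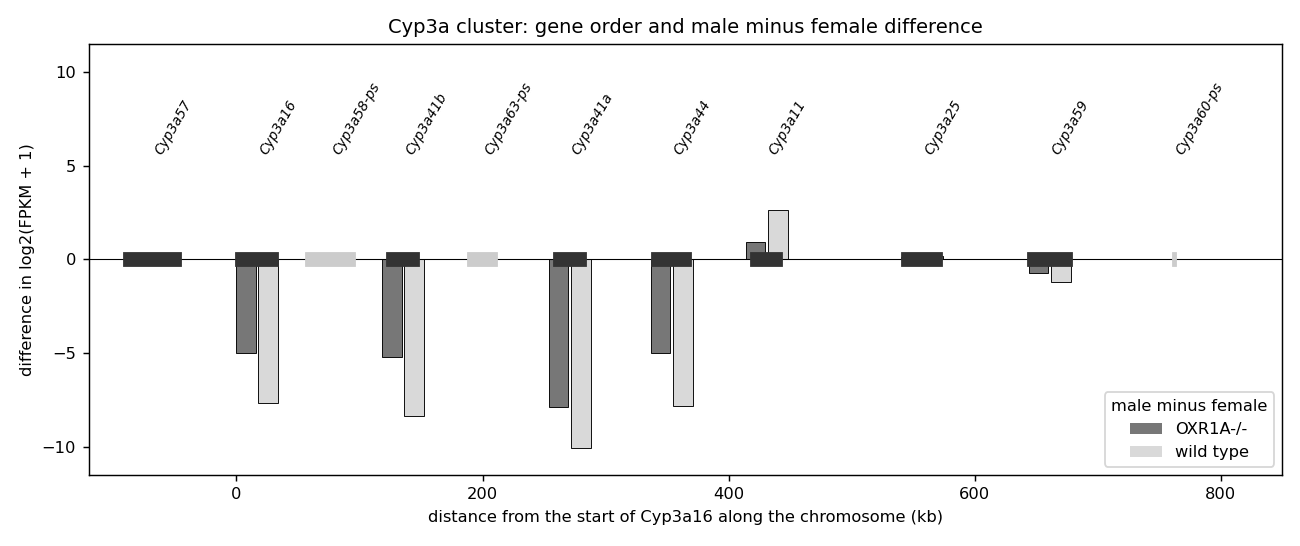
Gene order in the Cyp3a cluster (boxes, grey for pseudogenes) against distance in kb from the start of Cyp3a16, with the male minus female difference in log2(FPKM + 1) as bars for OXR1A-/- and wild-type livers. The 4 genes with differences of -4.97 or below follow each other with pseudogenes between some of them, Cyp3a11 has the tallest bar above 0, and genes with no bar were not tested or have a difference too small to see.

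The genes outside Cyp3a with the most similar pattern were found by the root mean square distance over the 12 libraries, on log2(FPKM + 1) centred on each gene's mean. Cyp3a41a was closest to A1bg (0.73), Sult2a1, a sulfotransferase of steroids and bile acids (0.98), and Cyp2c69 (1.12), where its own deviation from its mean was 4.81. Cyp3a16 was closest to Cyp2a4, a steroid hydroxylase (1.05). Cyp3a11 was closest to the complement gene C8b (0.58), where its own deviation was 1.18. Within the family, Cyp3a41b lay nearer to Cyp3a16 (0.56) than to its near-identical copy Cyp3a41a (1.68). This distance also follows the size of a gene's own deviation, which was 3.78 for Cyp3a41b, 3.48 for Cyp3a16 and 4.81 for Cyp3a41a. The separate values of the 2 copies are uncertain. These are descriptions over the same 12 libraries, in which sex is the main divide.

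Partners and regulators of the Cyp3a genes were followed as lists. Of 13 genes for electron donors and haem synthesis, 0 were called by limma between OXR1A-/- and wild type in either sex. Por, the reductase that feeds electrons to the P450 enzymes, was at 112 ± 29.3 FPKM in OXR1A-/- females and 200.2 ± 65.6 in wild-type females (log2 difference -0.80, limma adjusted p = 0.749). Between wild-type sexes Por was lower in males, at 97.0 ± 24.4 FPKM in males and 200.2 ± 65.6 in females (log2 difference -1.01, limma adjusted p = 0.0385). That call was lost with median-ratio scaling (adjusted p = 0.165) and quantile normalization (0.0787). Cpox, an enzyme of haem synthesis, was at 66.5 ± 5.66 FPKM in OXR1A-/- males and 43.0 ± 12.5 in wild-type males (log2 difference 0.66, limma adjusted p = 0.0743).

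Of 12 tested receptors and factors known to bind Cyp3a promoters, 0 were called in any of the 5 comparisons by limma. Nr1i2, which encodes PXR, was at 23.4 ± 2.23 FPKM in OXR1A-/- females and 26.9 ± 0.503 in wild-type females (log2 difference -0.20, limma adjusted p = 0.833). Hnf4a was at 142 ± 17.2 FPKM in OXR1A-/- males and 107 ± 21.2 in wild-type males (log2 difference 0.42, limma adjusted p = 0.133).

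Of 17 PXR and CAR target genes outside Cyp3a, 3 were called between OXR1A-/- and wild-type males and 0 in females. With only the male libraries in the fit, 2 genes were called higher and 1 lower among all 11514 tested genes. The fit with all 12 libraries called 245 and 49. Nearly all calls between genotypes in males, here and below, therefore rest on a fit that includes the female libraries. Aldh1a1 rose to 1552 ± 171 FPKM in OXR1A-/- males, against 773 ± 129 in wild-type males (log2 difference 1.01, limma adjusted p = 0.0131), and Aldh1a7 rose to 229 ± 30.4, against 142 ± 11.9 (0.68, limma adjusted p = 0.0330). Both encode aldehyde dehydrogenases. Ces2a, a carboxylesterase, fell to 80.2 ± 18.6 FPKM in OXR1A-/- males, against 156 ± 22.1 in wild-type males (-0.97, limma adjusted p = 0.0258). With median-ratio scaling the limma adjusted p became 0.0678 for Aldh1a1 and 0.276 for Aldh1a7. The list median was 0.35 in males, beside 0.19 over all tested genes.

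Of 12 tested genes from the growth hormone receptor to STAT5 and its repressors, 0 were called between genotypes in either sex. Between wild-type sexes 3 were lower in males, among them Cux2, a repressor typical of female liver, at 0.03 ± 0.01 FPKM in males and 9.0 ± 5.07 in females (log2 difference -3.17). Trim24 was at 2.66 ± 0.730 FPKM in wild-type males and 17.2 ± 2.16 in wild-type females (-2.33), and Ghr, the growth hormone receptor, had a limma adjusted p of 0.0499, which was 0.163 with quantile normalization and 0.80 with median-ratio scaling. Cux2 and Trim24 were also lower in OXR1A-/- males than in OXR1A-/- females. Without OXR1A-/- male 3 the limma adjusted p of Trim24 there was 0.055 and Cux2 alone was called. Ghr was not called between wild-type sexes without that library (adjusted p = 0.0571).

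Other genes of female liver were set beside the 4 female-biased Cyp3a genes. Of 16 such genes, 5 were called higher in OXR1A-/- males than in wild-type males, none in females, and all 16 were lower in males than in females in both genotypes. The 5 became 4 with median-ratio scaling, 3 with quantile normalization and 4 without OXR1A-/- male 3. Without that library 15 of the 16 were called lower in OXR1A-/- males than in OXR1A-/- females. Cyp2b9, another P450 of female liver, was at 108, 131 and 38.1 FPKM in OXR1A-/- males and 1.0, 0.42 and 0.76 in wild-type males. Its lowest OXR1A-/- male value was in male 3, the library in which the 4 Cyp3a genes had their highest male values. Sult2a1 was at 0.52, 0.77 and 15.4 FPKM in OXR1A-/- males and 0.08, 0.21 and 0.16 in wild-type males, with the highest value in male 3 as for the Cyp3a genes. The median gene of the list stood at 1.59%, 3.51% and 7.99% of its wild-type female mean in OXR1A-/- males 1, 2 and 3, and at 0.170% to 0.338% in wild-type males.

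In OXR1A-/- female 2, the median gene of the same list stood at 67.9% of its wild-type female mean, beside 79.9% and 106% in the other OXR1A-/- females. Cyp2a4 was at 8.02% of its wild-type female mean there. It had 76.7, 57.6 and 241 FPKM in OXR1A-/- females, against 655, 1036 and 464 in wild-type females, so all 3 OXR1A-/- females were below the wild-type ones, but it was not called (log2 difference -2.72, limma adjusted p = 0.390). A1bg was at 88.3% and Cyp2c69 at 78.7% in OXR1A-/- female 2, beside the 71.8% of Cyp3a41a. Of 15 male-biased liver genes, 7 fell in OXR1A-/- males (10 without OXR1A-/- male 3) and 0 were called in females. Over all genes the calls in males were 495 up and 75 down without OXR1A-/- male 3, against 245 and 49 with it. The sex-biased lists were chosen with results of these data known.

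CYP3A enzymes are made mainly by pericentral hepatocytes, and inflammation is known to lower several of them, so genes of the liver zones and of the acute phase were counted too. Of 13 pericentral genes, Rhbg rose and Cyp27a1 fell in OXR1A-/- males (log2 differences 1.27 and -0.55, limma adjusted p = 0.0336 and 0.0294), and of 10 periportal genes Cdh1 fell (-1.87, limma adjusted p = 0.00243). Without OXR1A-/- male 3, 2 pericentral genes were higher and 1 lower, and 2 periportal genes were lower. All genes together then gave 495 calls up and 75 down, against 245 and 49. The call of Rhbg was lost with median-ratio scaling (0.0669) and quantile normalization (0.0812). No gene of either zone was called in females. Of 12 acute phase genes, Lcn2, Orm2, Orm3 and Apcs rose in OXR1A-/- males and Orm2 rose in OXR1A-/- females. Lcn2, which encodes lipocalin 2, rose to 251 ± 68.8 FPKM in OXR1A-/- males, against 20.9 ± 14.0 in wild-type males (log2 difference 3.81, limma adjusted p = 0.00917). Orm2, an orosomucoid gene, rose to 80.8 ± 13.8 FPKM in OXR1A-/- females, against 21.5 ± 5.24 in wild-type females (log2 difference 1.87, limma adjusted p = 0.0122), which was not called with median-ratio scaling (0.0590). Apcs was not called with either scaling. The part of these genes' processes in the Cyp3a values was not tested.

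Markers of other liver cells moved with genotype in males. Of 6 Kupffer cell and macrophage markers, 5 were called higher in OXR1A-/- males, with summed levels of 145 to 265 FPKM, against 63.2 to 95.1 in wild-type males, and 4 of 6 sinusoidal endothelium markers were called higher, at 96.7 to 106 FPKM, against 63.2 to 69.1. Of 6 stellate cell markers 1 was higher (summed levels 138 to 213 FPKM, against 90.2 to 110), and 0 of 5 tested lymphocyte and 0 of 4 tested cholangiocyte markers were called. With median-ratio scaling and with quantile normalization 1 of the Kupffer cell markers was called, and 3 and 2 of the endothelial markers and 0 of the stellate cell markers. Without OXR1A-/- male 3, 6 Kupffer cell, 4 endothelial and 3 stellate cell markers were called. Calls over all genes also rose in that fit, to 495 up and 75 down, from 245 and 49. None of these markers was at 0 in all libraries of a group. Of the 5 hepatocyte markers 0 were called, and their sum was 50277 to 53801 FPKM in OXR1A-/- males and 58349 to 68072 in wild-type males. In females none of these lists had a call between genotypes. Between wild-type sexes, 6 Kupffer cell and 5 endothelial markers were lower in males, where 11.1% of all tested genes were. With median-ratio scaling 4 and 4 were. Neither list had a call between OXR1A-/- sexes in the main fit. Summed levels in wild-type females were 176 to 252 FPKM for Kupffer cell and 110 to 128 for endothelial markers. The part of these cell types in the Cyp3a values was not tested.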

How the data were processed

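RNA of 12 liver libraries was measured by sequencing of poly(A) RNA copied with random primers, per the labels' protocols. The deposited values are FPKM made by the authors, per the file headers, for 18560 genes with 2 decimals. TopHat2 and build mm10 are named per the submitters' processing notes, and the quantifier, annotation, filters and strand use were not given in the sources used here. Depth was estimated from the steps of low FPKM values, which lay 0.111 to 0.132 of a fragment from whole numbers on average, and no counting interval was made from it. In no pair of libraries were over 0.318% of values of at least 5 FPKM identical, so all were kept as separate samples.

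The fit used log2(FPKM + 1) and took in 11514 genes that reached 1 FPKM in 3 or more libraries. It was made with limma (3.58.1, R 4.3.3) on all 12 libraries, with a mean for each group, a contrast for each of 5 comparisons and a variance trend. Tests are two-sided, adjusted by Benjamini-Hochberg over all tested genes and called at an adjusted p under 0.05. The code was tested on simulated data. Folds are ratios of mean FPKM. Promoter sequences, coordinates and symbols came from RefSeq on GRCm38.p6, and 18502 Entrez numbers matched. The mRNA sequences and transcript lengths came from GENCODE transcripts matched to RefSeq numbers. Identity and motifs were computed with Biopython 1.88 in Python 3.11.15.

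The members and lists were chosen with earlier results of these data known. Beyond the members, the rule named Oxr1, the sex check genes, the 3 genes most like each member, up to 3 genes of each list and comparison by smallest p, called list genes, and the nearest genes beside the cluster. Part of what the rule names is not reported here. Cyp3a57, Cyp3a59, values of single libraries and Cyp2b9, Sult2a1, A1bg, Cyp2c69 and Cyp2a4 in them were chosen after their values were seen. Alternatives changed the offset, the filter, the scaling, the variance model, the libraries fitted, the replicate block and the handling of the Cyp3a41 pair.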

Additional observations from a re-analysis of the deposited data

How the results depend on the processing

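Under all alternatives tried, 0 Cyp3a genes were called between genotypes in males, in females or in the difference between them, and the 5 calls between wild-type sexes held, as 4 rows where Cyp3a41a and Cyp3a41b were summed. The 4 calls between OXR1A-/- sexes became 2 with no filter on low values and 0 with only the libraries compared. Over all genes these fits called 155 up and 200 down of 18560, and 98 up and 118 down of 11514. The main fit called 192 and 231. The Cyp3a calls became 2 with OXR1A-/- male 3, OXR1A-/- female 1 and wild-type female 1 left out together for their traces of Xist or Y-linked RNA. They were 1 to 4 with 1 library left out. Deviations of same-numbered samples correlated above 0.1 in 6 of 18 pairs (correlations -0.322 to 0.561 over genes). Pairs with different numbers were not compared, so these values cannot tell whether the numbers stand for a pairing or a batch. With the replicate block 0, 0, 0, 5 and 4 members were called in the 5 comparisons, as without it, while the genes called in OXR1A-/- against wild-type males went to 103 up and 29 down, against 245 and 49.

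Signs changed for Cyp3a13, Cyp3a25 and, in females, Cyp3a41a and Cyp3a41b. With 1 library left out, OXR1A-/- minus wild type ran from -0.31 to 0.0549 for Cyp3a13 and -0.30 to 0.22 for Cyp3a25 in males, and in females from -0.19 to 0.0497 for Cyp3a13, -0.0192 to 0.0990 for Cyp3a25, -0.21 to 0.45 for Cyp3a41a and -2.52 to 0.0766 for Cyp3a41b. The difference of the effects ran from -0.25 to 0.11 for Cyp3a13 and -0.34 to 0.18 for Cyp3a25, and male minus female in OXR1A-/- from -0.15 to 0.22 and -0.0194 to 0.38. In females Cyp3a25 was -0.00807 with quantile normalization, and without those 3 libraries it was -0.0358 and Cyp3a41a -0.00211, where the difference of the effects of Cyp3a13 was 0.0562. The cause was not tested.

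Cyp3a25 was called between wild-type sexes with array weights (0.47, adjusted p = 0.0114). Over all genes the calls in males ranged from 3, with only the libraries compared, to 773 with array weights (main 294). They ranged from 0 to 33 in females (2), 1 to 22 for the difference (3), 525 to 4448 between wild-type sexes (1539) and 123 to 637 between OXR1A-/- sexes (423). Median-ratio scaling took the median of all genes between wild-type sexes to 0.03 and its calls to 618 up and 456 down, against 266 and 1273. In males it gave 68 up and 77 down. With 3 libraries a group and FPKM alone, counting error of low values is not known.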
